A study of Sus scrofa with 8 samples.

Results

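The genes described here set how pyruvate enters the mitochondrion's metabolism: the pyruvate dehydrogenase complex, its regulators, and pyruvate carboxylase. The set named 8 genes, PDHA1, PDHB, PDHX, DLAT, DLD, PDP1, PDK4 and PC, and took every array probe set (a group of probes read as 1 value) annotated with exactly 1 of these symbols. Of the 8 genes, 6 had such a probe set, out of 6765 genes with one on the array. PDK4 had 2 and the others 1 each, so 7 of 24123 probe sets were described. PDHX and PDP1 had no probe set by this rule and were not analysed here. All 7 probe sets passed the filter on dim signal, so none of the 6 genes was lost to it.

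Total RNA of the longissimus dorsi, a long back muscle, was measured on 8 Affymetrix porcine arrays, 1 per animal. Of these, 4 were from Korean native pigs at 7 months of age and 4 from Yorkshire pigs at 6 months, without any treatment named, and raised in the same way. Breed and age therefore cannot be told apart. The series compared muscle expression between the breeds to find genes that differ, and animals are numbered within a breed as labelled. The labels call the arrays biological replicates but do not state how the animals were chosen or whether they were fasted, and each sample is a piece of whole muscle.

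Pyruvate dehydrogenase is a large assembly in the mitochondrial matrix that turns pyruvate from glycolysis into acetyl-CoA. PDHA1 and PDHB encode the alpha and beta chains of its first enzyme, which uses thiamine diphosphate. DLAT encodes the second enzyme, whose lipoyl arms carry the acetyl group, and DLD the third, a dehydrogenase shared with the 2-oxoglutarate and branched-chain complexes. Kinases, among them PDK4, switch the complex off by phosphorylating the alpha chain, and phosphatases such as PDP1 switch it on. In skeletal muscle PDK4 is known to rise in fasting and when fat is the main fuel. PC encodes pyruvate carboxylase, a biotin enzyme that makes oxaloacetate from pyruvate and is known for high levels in liver and fat.

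Arrays had been scaled to a common mean before deposit, so a value says how a probe set stood among the others of its array. The median signal was 135.8 to 185.3. Hybridisation controls, RNA added to show how well an array was hybridised, split the arrays: replicates 1 and 3 of each breed were bright (13.42 to 13.70 log2 units), and replicates 2 and 4 were dim (12.50 to 12.81). The 3' over 5' ratio of the housekeeping controls, which rises as RNA breaks down or labelling falls short, was 3.33 log2 units in Korean native pig 1 and 3.03 in Yorkshire 3, against 0.87 to 1.73 on the other 6 arrays. Muscle markers were among the brightest probe sets, with CKM at 56603 to 118954, and the 95th percentile of the negative controls was 91.5. Of 3 liver markers, ALB at 8.81 to 179.7 and TTR at 8.28 to 198.4 lay partly below that level, while APOA1 was above it in every animal, at 477 to 1317. The adipocyte marker ADIPOQ was at 87.2 to 508.0.

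PDK4 varied between animals far more than any measured subunit of the complex, and it did so mostly within the Korean native pigs. Its brighter probe set had signals of 637, 2669, 20248 and 14876 in Korean native pigs 1 to 4 and of 16956, 5584, 12126 and 10881 in Yorkshire pigs 1 to 4. Korean native pigs 1 and 2 were the lowest of all animals, Korean native pig 3 was the highest, and the Yorkshire values lay between these ends. The highest signal was 31.8 times the lowest over all animals and among Korean native pigs, and 3.04 times among Yorkshire pigs.

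The dimmer PDK4 probe set gave 117, 798, 6117 and 4944 in Korean native pigs 1 to 4 and 5768, 1414, 3111 and 2829 in Yorkshire pigs 1 to 4. It put the 8 animals in the same order as the brighter one. On the log2(signal + 32) scale, used for all log2 values below, the brighter set exceeded the dimmer by 1.55 to 2.16 in every animal, most in Korean native pig 1. There the dimmer set was 1.28 times the 95th percentile of the negative controls, while the brighter one was 6.95 times that level.

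**Figure D1:**
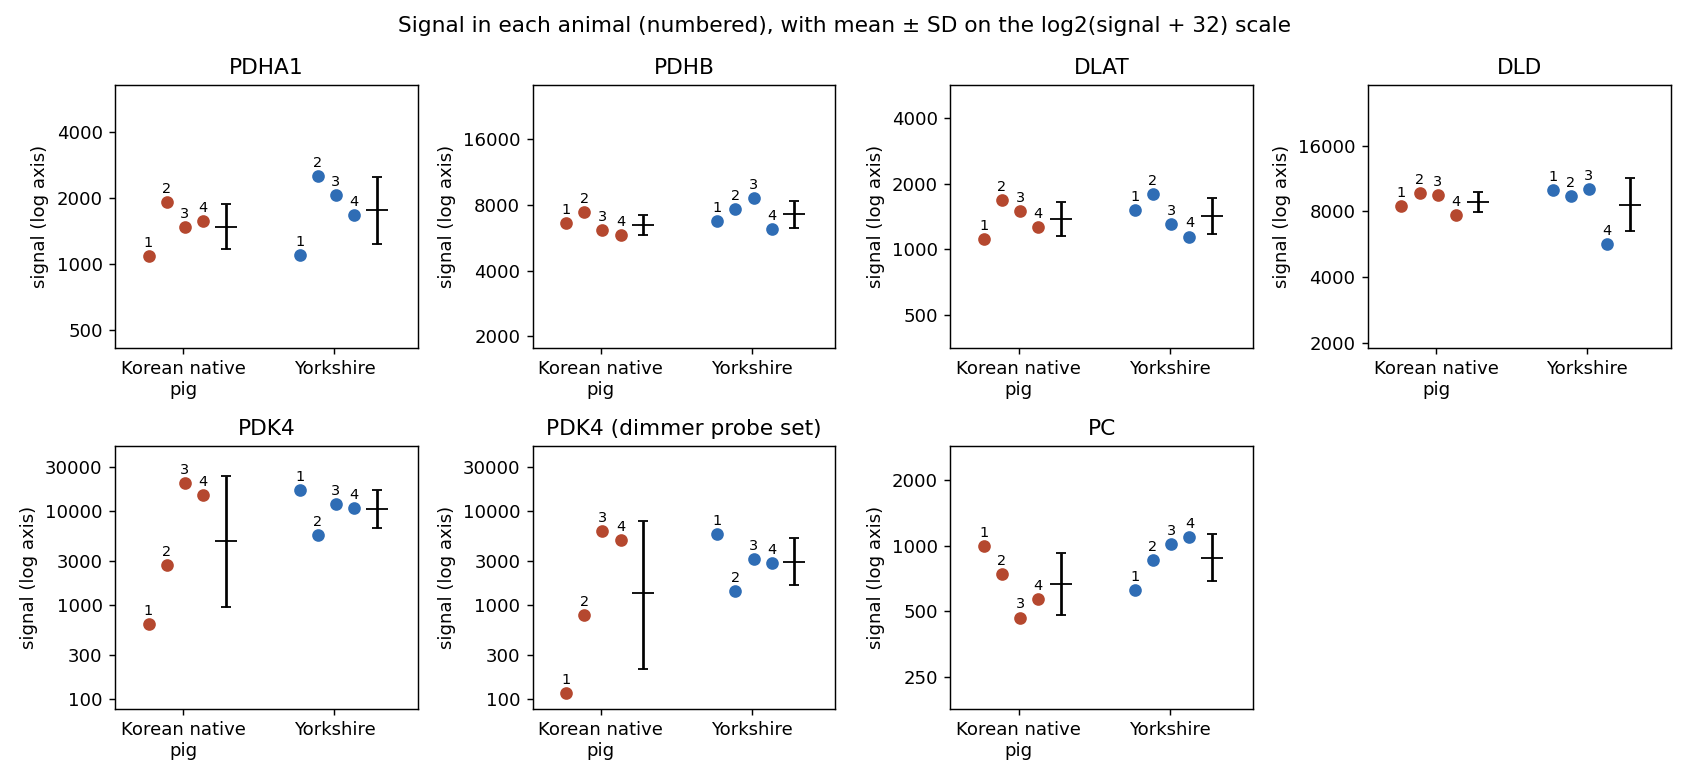
Signal of each of the 7 probe sets (log axis) in the 4 Korean native pigs and the 4 Yorkshire pigs, 1 numbered point per animal, with the mean and SD on the log2(signal + 32) scale beside each breed (n = 4). PDK4 reaches from 637 to 20248 within the Korean native pigs, and in each panel the values of the breeds overlap.

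The standard deviation (SD) of PDK4 over the 8 animals was 1.68 log2 units, against a median of 0.36 over the 5331 genes tested. This was the 5th largest SD of these genes, each gene taken by its brightest probe set. Of the 308 probe sets within 0.5 log2 units of its mean signal, 99.4% had a smaller SD. Within Korean native pigs its SD of 2.29 was the 3rd largest, and within Yorkshire pigs its SD of 0.67 was 627th. Without Korean native pig 1 the SD was 1.03 and its rank 87th, and without both arrays of high 3' over 5' ratio, Korean native pig 1 and Yorkshire 3, it was 1.12 and 59th. Korean native pig 2, whose 3' over 5' ratio was 0.87, was at 2669, and Yorkshire 3, whose ratio was 3.03, was at 12126. The part of RNA quality in the spread was not tested.

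**Figure D2:**
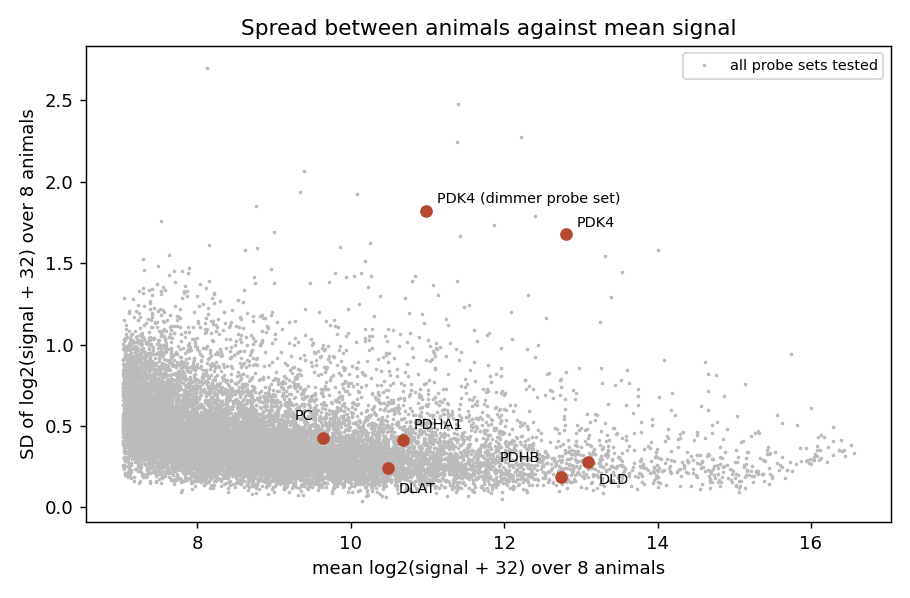
SD of log2(signal + 32) over the 8 animals against mean log2(signal + 32), for all 14399 probe sets tested (grey) and the 7 probe sets of the set (red). Both PDK4 probe sets, with SDs of 1.68 and 1.82, lie far above the subunits and PC, whose SDs are 0.19 to 0.43.

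PDK4 was lower in Korean native pigs on average, but by less than the spread between animals. Its log2 signal was 12.24 ± 2.29 in the Korean breed and 13.37 ± 0.67 in the Yorkshire breed (SD, n = 4). The difference of -1.13 (SE 0.86, 95% interval -3.01 to 0.75), a 2.19-fold change, did not pass (limma adjusted p = 0.999). For the dimmer probe set the difference was -1.08 (SE 0.95). Breed accounted for 13.1% of the variance of PDK4 over the animals. With so few animals such a share is above 0 even where breed has no effect, and no share over all genes is set beside it. Of 14399 probe sets limma called 0%, and 3.96% had an unadjusted p under 0.05. None of the 7 probe sets was among either.

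A single animal carried most of that difference. Without Korean native pig 1 it was -0.18, without Korean native pig 3 it was -1.82, and without both arrays of high 3' over 5' ratio it was -0.12. Within the 4 arrays of bright hybridisation controls it was -1.96, and within the 4 of dim controls -0.30, each with 2 animals per breed. With limma's array weights it was -0.70.

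The subunits of the complex had smaller SDs than PDK4, at 0.19 to 0.28 log2 units for PDHB, DLAT and DLD, below the median gene, and 0.42 for PDHA1, above it. Of probe sets within 0.5 log2 units of its mean signal, 73.3% had a smaller SD than PDHA1. PDHA1, the chain that the kinases phosphorylate, had signals of 1081, 1912, 1467 and 1567 in Korean native pigs 1 to 4 and of 1101, 2515, 2066 and 1667 in Yorkshire pigs 1 to 4. Replicate 1 of each breed was the lowest and Yorkshire 2 the highest, a 2.33-fold range, the widest of the 4 measured subunits. Its breed difference was -0.25 (SE 0.26, 95% interval -0.82 to 0.33, limma adjusted p = 0.999). It was -0.08 without Yorkshire 2, -0.47 without Yorkshire 1, and -0.02 without both arrays of high 3' over 5' ratio.

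PDHB, which encodes the beta chain that pairs with PDHA1, had 6599, 7409, 6109 and 5837 in Korean native pigs 1 to 4 and 6724, 7646, 8609 and 6180 in Yorkshire pigs 1 to 4. The highest animal, Yorkshire 3, was 1.47 times the lowest, and the SD of 0.19 log2 units was the smallest of the 7 probe sets. The breed difference was -0.16 (SE 0.17, 95% interval -0.54 to 0.21, limma adjusted p = 0.999), or -0.08 without Yorkshire 3.

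DLAT, the acetyltransferase, had 1119, 1680, 1507 and 1270 in Korean native pigs 1 to 4 and 1516, 1795, 1306 and 1146 in Yorkshire pigs 1 to 4. The breeds overlapped almost completely. The difference of -0.04 (SE 0.21, 95% interval -0.49 to 0.41, limma adjusted p = 0.999) took the other sign without Korean native pig 1 or without Yorkshire 2, at 0.05 and 0.07, and with arrays centred on their median, at 0.03.

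DLD, the shared dehydrogenase, had 8483, 9661, 9528 and 7693 in Korean native pigs 1 to 4 and 9976, 9441, 10133 and 5680 in Yorkshire pigs 1 to 4. Yorkshire 4 stood below the other 7 animals. The breed difference was 0.04 (SE 0.21, 95% interval -0.42 to 0.49, limma adjusted p = 0.999), and it was -0.16 without Yorkshire 4. It was also below 0, though by less than 0.01, without Korean native pig 2 or 3.

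PC, the other mitochondrial user of pyruvate, had signals of 994, 738, 468 and 568 in Korean native pigs 1 to 4 and of 623, 862, 1021 and 1097 in Yorkshire pigs 1 to 4. The 2 lowest animals were Korean native pigs 3 and 4 and the 2 highest Yorkshire 3 and 4, but Korean native pig 1 lay among the high Yorkshire values. Its log2 signal was 9.45 ± 0.45 against 9.84 ± 0.35 (SD, n = 4). The difference was -0.39 (SE 0.26, 95% interval -0.96 to 0.18, limma unadjusted p = 0.165, limma adjusted p = 0.999). Breed accounted for 23.7% of the variance, the highest share of the 6 genes, and such a share is above 0 even where breed has no effect. Leaving out Korean native pig 3 made the difference -0.23, and leaving out Korean native pig 1 made it -0.57. The bright arrays alone gave -0.21 and the dim ones -0.56.

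Fat cells are a known site of PC. The summed signal of the 10 adipocyte markers on the array (of 12 listed) was 5545 to 20418 in the Korean breed and 7800 to 18115 in the Yorkshire breed. The sum was highest in Korean native pig 1, where PC was 994. SCD at 8733 and CFD at 6328 were its largest parts there. FABP4 and FASN, at 3100 and 1336 there, were highest in Yorkshire 3, at 5728 and 1762. ADIPOQ, at 87.2, was lower than in any other animal, but this is below the negative controls' 95th percentile. The markers therefore did not all follow the sum. In Yorkshire 4, which had the highest PC signal, the sum was the lowest of its breed. The part of fat cells in the PC values was not tested, and in whole muscle fewer cells of a type and less RNA per cell cannot be told apart.

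**Figure D3:**
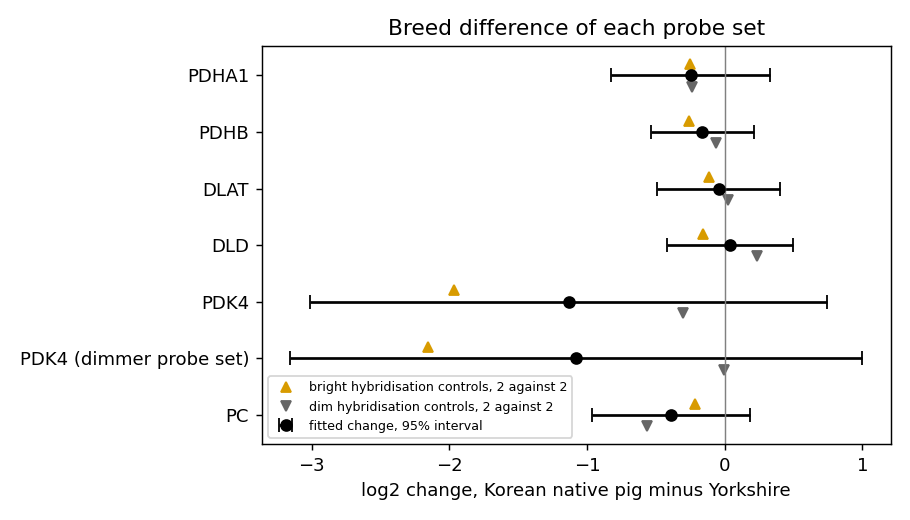
Breed difference of each probe set on the log2(signal + 32) scale, Korean native pig minus Yorkshire, with limma's 95% interval (black) and the differences within arrays of bright and of dim hybridisation controls (triangles, 2 animals per breed). Every interval crosses 0, and that of PDK4, from -3.01 to 0.75, is the widest but for its dimmer probe set.

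Of the 6 genes, 5 were below 0 in Korean native pigs, or 83.3%, where 50.4% of the 5331 genes tested were below 0. The median difference was -0.20 over the 6 genes and -0.10 over the 4 subunits, against -0.00255 over all genes tested. In none of the 7 probe sets did the breeds separate without overlap, as they did in 2.56% of all probe sets tested.

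Set against the complex, PDK4 differed between animals nearly as much as on its own scale. The mean log2 signal of PDHA1, PDHB, DLAT and DLD differed by at most 0.56 between animals, a 1.48-fold range. PDK4 minus this mean was -2.13, -0.54, 2.57 and 2.26 in Korean native pigs 1 to 4 and 2.36, 0.39, 1.62 and 1.91 in Yorkshire pigs 1 to 4. Signals of different probe sets are not comparable as levels, so only the differences of this measure between animals are read. It ran over 4.70 log2 units, or 25.9-fold, and was lowest in Korean native pigs 1 and 2 and in Yorkshire 2.

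By breed PDK4 minus the subunit mean was 0.54 ± 2.26 in the Korean breed and 1.57 ± 0.85 in the Yorkshire breed (SD, n = 4), and the breeds overlapped. The difference between breeds of -1.03 was -0.14 without Korean native pig 1, and leaving out Korean native pig 3 made it -1.71. PC minus the subunit mean was -1.51, -2.35, -2.77 and -2.38 in Korean native pigs 1 to 4 and -2.33, -2.26, -1.91 and -1.36 in Yorkshire pigs 1 to 4. It differed by 1.41 log2 units over the animals and by -0.29 between breeds.

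**Figure D4:**
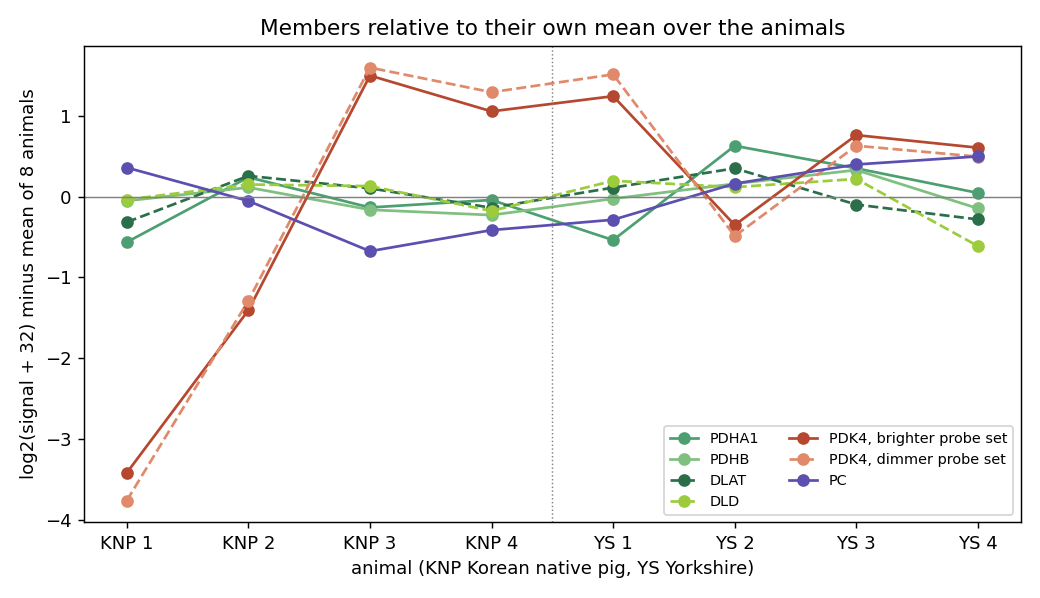
log2(signal + 32) of each probe set minus its own mean over the 8 animals, by animal (lines only join points of a gene, since animals have no order). Both PDK4 probe sets are more than 3 log2 units below their mean in Korean native pig 1 and more than 1 above it in Korean native pigs 3 and 4 and Yorkshire 1. The 4 subunits stay within 1 log2 unit of their means, with PDHA1 and DLD reaching farthest.

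No relation between 2 of the 6 genes across animals passed a test. All 15 pairs were examined over the 8 animals by exact two-sided permutation. For PDK4 and PC, Pearson's r was -0.48 (exact permutation p = 0.231, or 0.578 adjusted by Benjamini-Hochberg over the 15 pairs) and Spearman's rho -0.60 (exact permutation p = 0.132, adjusted 0.521). Without Korean native pigs 1 and 2, the animals farthest from the PDK4 median, r was -0.65. Taken on deviations from each breed's mean, as a description over the same 8 animals, r was -0.81, or -0.83 with the dimmer PDK4 probe set. That was the largest in size of the 15 pairs on this measure, followed by 0.69 for PDHB and DLD. No pair was tested on it, and the 2 PDK4 probe sets are not independent of each other. PC was highest among Korean native pigs in animal 1 and lowest in animal 3, the reverse of PDK4, whereas Yorkshire 3 and 4, the highest in PC, were in the middle of the animals in PDK4.

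PDK4 had an r of 0.15 with PDHA1 (exact permutation p = 0.731, adjusted 0.843; rho -0.19, p = 0.665, adjusted 0.793). Without Korean native pigs 1 and 2 the r was -0.83, a value that was not tested. No relation is read from either value. The smallest p for r was that of DLAT and DLD, at r = 0.63 (exact permutation p = 0.0783, adjusted 0.578; rho 0.52, p = 0.197, adjusted 0.521) and 0.77 without Korean native pig 1 and Yorkshire 2. The bright and the dim arrays held 4 animals each, too few to repeat a relation within them.

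The genes most like each member were taken by the highest Pearson r of log2 signal over the 8 animals among 5330 other genes, as a description. The highest r of so many genes over 8 animals is large even without any relation, so none is read from it. For PDK4 the closest genes were FDX1, the mitochondrial ferredoxin, at r = 0.93, ABHD5, an activator of triglyceride lipase, at 0.92, and the mitochondrial ribosomal gene MRPS10 at 0.90. FDX1 ranged from 1384 in Korean native pig 1 to 2499 in Korean native pig 3 and ABHD5 from 228 to 467 in the same animals, far narrower ranges than that of PDK4. For PDHA1 the closest were SDHB, a subunit of succinate dehydrogenase, at 0.97, UQCC at 0.96 and LAMC1, a laminin chain, at 0.94. SDHB was lowest in Korean native pig 1 and Yorkshire 1, at 14125 and 14291, and highest in Yorkshire 2 at 22152, the animals at the ends of PDHA1.

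For PDHB the closest were HADH, an enzyme of fatty acid oxidation, at 0.96, the aspartate aminotransferase gene GOT1 at 0.95 and the dynein gene DYNC1LI2 at 0.94. DLAT was closest to SENP5 at 0.96, LRP6 at 0.95 and DDX6 at 0.93, and SENP5 at 35.8 to 298 was below the negative controls' 95th percentile in some animals. DLD was closest to TMEM41B at 0.99, CCNB1IP1 at 0.98 and TRAPPC13 at 0.97, and all 3 were lowest in Yorkshire 4, as DLD was. PC was closest to SCAMP4 at 0.97, ZBED5 at 0.96 and DHX30 at 0.95.

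Around the complex, 9 lists of related genes gave 63 tested genes of 107 listed, and none passed limma's threshold, with 1 at an unadjusted p under 0.05 against 3.43% of all genes. Of the 63, 37 were below 0 and 26 above, with a median of -0.05. The 2 genes of smallest p in each list are named, and limma's adjusted p was 0.999 for all of them. MPC1, MPC2, LIAS, CS, FOXO1, PPARA, UCP3, ANGPTL4 and CPT1B are named besides, after their values were seen.

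Of the other kinases and phosphatases of the complex, 2 of 5 were measured. The kinase PDK3 had a difference of 0.25 (SE 0.36) and the phosphatase PDP2 -0.05 (SE 0.30). PDK3 signals of 209 to 650 did not follow PDK4: Korean native pig 2 had 618 and Korean native pig 3 had 311.

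Of 9 genes of pyruvate supply and lactate, 8 were below 0, with a median of -0.15. Muscle markers lay the same way, with 8 of 9 below 0 and a median of -0.30. So did 4 of 4 connective tissue markers, with a median of -0.26, 6 of 9 adipocyte markers, at -0.58, and the 1 tested liver marker. Medians were above 0 for endothelial (0.02), macrophage and lymphocyte (0.11) and red cell (0.07) markers. The part of cell types in the list's values was not tested. LDHA, the muscle lactate dehydrogenase, was at -0.41 (SE 0.19) and GPT, which exchanges pyruvate and alanine, at -0.59 (SE 0.33). Both chains of the mitochondrial pyruvate carrier were steady: MPC1 ranged from 9610 to 13510 and MPC2 from 6289 to 7865, with differences of -0.04 and -0.06.

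Of 6 cofactor genes 4 were above 0, with a median of 0.13. GLRX5, needed for iron-sulfur clusters, was at -0.43 (SE 0.23), and HLCS, which attaches biotin to PC, at 0.39 (SE 0.43). HLCS was at 58.8 in Yorkshire 4, below the negative controls' 95th percentile. LIAS, which makes the lipoyl group of DLAT, ranged from 506 to 659.

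The related 2-oxoacid dehydrogenases had 4 of 6 genes below 0 and a median of -0.19. DBT, the branched-chain counterpart of DLAT, was at 0.50 (SE 0.25), and DLST, its counterpart in the citrate cycle complex, at -0.22 (SE 0.20). Both measured biotin carboxylases, MCCC2 at -0.40 (SE 0.25) and PCCA at -0.23 (SE 0.20), were below 0. Of 11 genes of citrate cycle entry and oxaloacetate use 7 were below 0, with a median of -0.05, among them the citrate carrier SLC25A1 at -0.47 (SE 0.31) and MDH1 at -0.31 (SE 0.22). CS, which joins acetyl-CoA to oxaloacetate, was at -0.04 and ranged from 14461 to 19120. Both measured genes of mitochondrial calcium handling were below 0, LETM1 at -0.29 (SE 0.33) and VDAC2 at -0.10 (SE 0.19).

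Of 9 tested controllers of PDK4 transcription, 5 were above 0 and 4 below, with a median of 0.01. PPARGC1A, a coactivator of mitochondrial genes, had the lowest p of all 63 and was the gene past the unadjusted threshold. Its unadjusted p was above that threshold in 5 of the 8 fits with 1 animal left out. Its difference was -0.96 (SE 0.41), with signals of 510 to 745 in Korean native pigs and of 818, 1428, 3478 and 683 in Yorkshire pigs 1 to 4. PPARGC1A was highest in Yorkshire 3, without which its difference was -0.49, and there PDK4 was at 12126. The transcription factor CEBPB was at 0.28 (SE 0.22). FOXO1 is a factor known to activate PDK4. Its signals were 860, 1061, 1723 and 1012 in Korean native pigs 1 to 4 and 1128 to 1276 in Yorkshire pigs, lowest and highest in the same animals as PDK4. In Korean native pig 4, where PDK4 was at 14876, FOXO1 was lower than in any animal but Korean native pig 1. Its Pearson r with PDK4 was 0.72, against -0.48 for PPARD and a median of -0.01 over the 9 tested controllers. The PPARA signal was 4.36 to 55.7, under the negative controls' 95th percentile in every animal.

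Of 16 tested fat oxidation genes that are known to move with PDK4 in fasting, 9 were above 0 and 7 below, with a median of 0.04. The carnitine carrier SLC25A20 was at 0.34 (SE 0.23) and FABP3, a fatty acid binding protein, at -0.41 (SE 0.33). UCP3, the muscle uncoupling protein, had 271, 362, 1166 and 572 in Korean native pigs 1 to 4 and 472 to 671 in Yorkshire pigs. Korean native pigs 1 and 2 were the lowest and Korean native pig 3 the highest, as for PDK4. The Pearson r of UCP3 with PDK4, 0.78, was the highest of the 16 tested genes. Their median r was 0.21, and that of CPT1B was -0.01. ANGPTL4, a further fasting gene, was highest in Korean native pig 2, at 234, and at 50.7 in Korean native pig 3. In Korean native pig 3 and in Yorkshire 1 and 4 it was below the negative controls' 95th percentile of 91.5. The order of its low values is therefore not read. CPT1B, the muscle carnitine palmitoyltransferase, ranged from 448 in Yorkshire 1 to 1007 in Korean native pig 3.

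**Figure D5:**
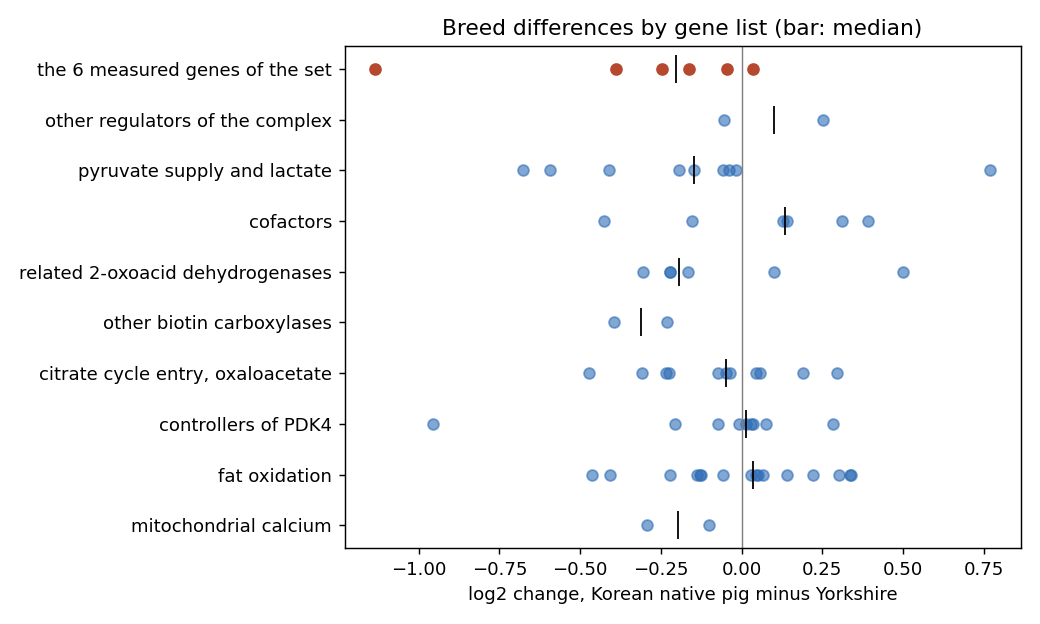
Breed difference on the log2(signal + 32) scale, Korean native pig minus Yorkshire, for the 6 measured genes (red) and for the tested genes of the 9 lists (blue), with each median as a bar. PDK4 at -1.13 is the lowest point, and the medians of the 9 lists lie between -0.31 and 0.13.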

How the data were processed

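GCOS 1.3, per the submitters' processing notes, gave the deposited intensity values, which are linear, with 1 value for each probe set on an array. Nothing in these sources states the summarisation method or any filter. Leaving out the top and bottom 2% of values, the mean was 500.1 to 500.2 on every array. No build is stated for the array, so genes carry no coordinates. Symbols are those of GEO's platform annotation, which can be old, and probe sets with several symbols were passed over.

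Analysis used log2(signal + 32), which understates changes at low signal. After 124 control probe sets and the 40% of lowest mean signal were dropped, 14399 remained. limma 3.58.1 (R 4.3.3; lmFit, then eBayes with an intensity trend) compared the breeds over 8 arrays with no covariate. Benjamini-Hochberg adjustment covered all 14399, with a threshold of 0.05. Precision is limited by the number of arrays, with a median SE of 0.283 log2 units, and p-values measure only the spread between these samples. The fit was tested on simulated data. Each gene was taken by the probe set of highest mean signal.

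Named genes were all members, the 3 genes of highest r with each, and the 2 of smallest p in each list. Members and lists were chosen with earlier results of these data known. Breed differences were refitted under other normalisations, pseudocounts, filters, variance models, covariates and with arrays left out.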

Additional observations from a re-analysis of the deposited data

Results flagged for a closer look

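The log2 signal of DLD in Yorkshire 4, 12.48, stood apart from the other Yorkshire pigs, at 13.21 to 13.31. Its gap to the nearest was 0.878 of the range of the 4 values, above Dixon's critical value of 0.829. It was the only one of 20 groups of 4 animals examined, and chance flags about 1 in 20.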

How the results depend on the processing

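None of the 134 refits of the 6 genes passed limma's threshold, with a smallest adjusted p of 0.915. PDHA1, PDHB, PDK4 and PC kept their sign under every alternative run. DLAT turned to 0.0319 with arrays centred on their median and to 0.0140 without the 2 arrays of high 3' over 5' ratio. DLD turned to -0.0788 with array weights. Both also differed in sign between the array classes. Within the bright and the dim arrays DLD was at -0.161 and 0.234, and DLAT at -0.113 and 0.0255. With 1 animal left out the differences ranged from -1.82 to -0.18 for PDK4, -0.57 to -0.23 for PC, -0.47 to -0.08 for PDHA1, -0.24 to -0.08 for PDHB, -0.145 to 0.0662 for DLAT and -0.161 to 0.116 for DLD. The cause of these moves was not tested. PDK4 minus the subunit mean ranged from -1.71 to -0.14, PC minus it from -0.53 to -0.08, and the median of the 63 related genes from -0.12 to 0.01. With the replicate number as a block, 1 probe set in all passed, against 0 without it, and the differences of the 6 genes were unchanged, since each block holds both breeds. Deviations of same-numbered animals correlated at -0.0434, 0.306, 0.102 and 0.0536, and 4 of 8 arrays matched best with their own number. Some such matches arise by chance, since each array had only 4 candidates in the other breed. Hybridisation controls were alike by number, as at 12.50 and 12.57 for animals 4. With the block the SE fell from 0.86 to 0.70 for PDK4 and from 0.26 to 0.19 for PDHA1. It also fell for DLAT and DLD, and rose for PC and PDHB. The labels name no pairs, so the numbers were not taken as pairs, and whether they are was not tested. Without 1 animal at a time 0 probe sets passed. Comparisons with PDP1 and PDHX could not be run without a probe set. Signals near the negative controls, as for the dimmer PDK4 probe set in Korean native pig 1, limit how low a level can be read.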

Other observations

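Genes that move glucose and lactate across the muscle cell membrane also varied widely between animals, and are given as values chosen after they were seen. SLC2A4, the insulin-responsive glucose transporter, had signals of 60.9 in Korean native pig 1, below the negative controls' 95th percentile of 91.5, 164 to 299 in the other Korean native pigs and 216 to 477 in Yorkshire pigs. SLC16A3, the lactate exporter of fast muscle, had 861, 1370, 195 and 493 in Korean native pigs 1 to 4 and 280, 426, 120 and 786 in Yorkshire pigs 1 to 4. The chemokine gene CXCL14 was among the 3 genes most opposite to PDK4 over the 8 animals (Pearson r = -0.92). It was highest in Korean native pigs 1 and 2, at 1537 and 756, and 319 to 508 in the other 6 animals.

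The 4 genes with a larger SD than PDK4 over the 8 animals were ARG2 at 2.07 log2 units, LOC396781 at 1.94, XIRP1, a gene of striated muscle, at 1.79 and the nuclear receptor gene NR4A3 at 1.69.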
